A study of Homo sapiens with 12 samples.

Results

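The 9 genes described here make, bind or clear retinoic acid, or act on its precursors retinol and retinal. *RDH10*, *RDH11*, *RDH13* and *DHRS3* act on retinol and retinal, and *ALDH1A1*, *ALDH1A2* and *ALDH1A3* make retinoic acid. *CRABP2* carries retinoic acid and *CYP26A1* breaks it down. All 9 genes were taken by symbol, as every probe that the deposited array table assigns to one of them. This gave 16 probes of the 47323 in the table, or 9 of its 34602 gene symbols. All 16 probes carry RefSeq accessions of the gene they are named for. Retinol from the blood is oxidised reversibly to retinal by retinol dehydrogenases, and retinaldehyde dehydrogenases then turn retinal irreversibly into retinoic acid. Retinoic acid binds nuclear receptors of the RAR family, which sit on DNA paired with RXR receptors, and CYP26 enzymes hydroxylate it so that it is cleared. In the prostate, retinoids are known for their part in epithelial differentiation, and RDH11 was first described as a short-chain dehydrogenase of prostate epithelium.

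The arrays measured total RNA of LNCaP, an established and androgen-responsive line of human prostate cancer cells, in 4 groups of 3 arrays. All cells were grown with 2% steroid-stripped serum and no phenol red, were transfected with an siRNA, and were treated from 48 h later for 72 h, so that no group is untransfected. The groups were a control siRNA with the ethanol vehicle, a control siRNA with 10 nM R1881 (a synthetic androgen), an siRNA against the estrogen-related receptor gamma (ERRγ, gene *ESRRG*) with vehicle, and the ERRγ siRNA with 10 nM R1881. The samples are given as triplicates of 1 cell line with no word on separate cultures, so a p-value speaks only for the scatter of these arrays, which may be technical, and fewer cells of a kind cannot be told apart from less RNA per cell.

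Between 18698 and 20536 probes were detected on an array, which means a detection p-value under 0.05 against the array's own negative controls. A raw signal of 96.7 to 104.6, depending on the array, was the lowest at which a probe was detected. The array medians were 93.86 to 101.1, and on every array the median lay below that array's lowest detected signal. Of the luminal prostate markers listed, 8 of 8 were detected on all 12 arrays, against 0 of 3 basal, 1 of 4 stromal, 1 of 3 immune, 1 of 3 endothelial and 1 of 3 neuroendocrine markers. The androgen response gene *KLK3* (prostate-specific antigen) had raw signals of 116.2 to 142.3 in vehicle and 1988 to 2512 in R1881 at its brightest probe. The siRNA target could not be checked, because none of the 3 *ESRRG* probes was detected on any array. Each comparison of the siRNAs below is therefore one of groups as labelled, with no measured depletion.

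The promoter letters of 3 of the genes are shown because each stands for one end of the results: *ALDH1A3* had the largest response to R1881, *DHRS3* is the retinal reductase whose window holds letters of an ERR element, and *CYP26A1* is the retinoic acid target that was not measurable. They are RefSeq sequences of GRCh38.p14, each the 250 bases before an annotated transcription start, written in the direction of the gene. Capitals mark GC boxes (GGGCGG on either strand) in *ALDH1A3*, chr15:100879581-100879830, plus strand. In *DHRS3*, chr1:12596614-12596863, minus strand, they mark the ERR element AAGGTCA, which there reads TGACCTT. In *CYP26A1*, chr10:93073643-93073892, plus strand, they mark the direct repeat of the retinoic acid receptors.
ALDH1A3: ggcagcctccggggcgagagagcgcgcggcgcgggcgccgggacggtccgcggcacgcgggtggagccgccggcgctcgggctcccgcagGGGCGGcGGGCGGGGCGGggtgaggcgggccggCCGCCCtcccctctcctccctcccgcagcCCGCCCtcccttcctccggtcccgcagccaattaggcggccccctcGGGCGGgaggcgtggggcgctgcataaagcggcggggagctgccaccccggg
DHRS3: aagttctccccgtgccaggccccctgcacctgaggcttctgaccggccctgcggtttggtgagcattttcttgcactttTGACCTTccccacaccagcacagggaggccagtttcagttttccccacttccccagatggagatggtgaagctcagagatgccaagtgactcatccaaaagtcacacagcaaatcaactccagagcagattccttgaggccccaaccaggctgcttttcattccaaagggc
CYP26A1: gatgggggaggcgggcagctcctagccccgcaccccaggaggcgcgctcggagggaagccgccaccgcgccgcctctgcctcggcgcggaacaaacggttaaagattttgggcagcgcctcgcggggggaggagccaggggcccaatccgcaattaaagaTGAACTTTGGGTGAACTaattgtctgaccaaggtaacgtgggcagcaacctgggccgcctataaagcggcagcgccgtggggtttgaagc

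Windows were found for 8 of the 9 genes, 13 in all, and were searched on both strands for 4 motifs. The *ALDH1A3* window is 82.4% G and C and holds 6 GC boxes, of which the one from -153 to -148 and the one from -148 to -143 share a base. GC boxes stood in 42.6% of the 35116 windows of all genes. The ERR element in *DHRS3* lies from -171 to -165 before a start inside the gene, and 3.44% of all windows hold these letters. The retinoic acid receptor repeat is AGGTCA or AGTTCA, any bases NNNNN, and again AGGTCA or AGTTCA. It was found from -90 to -74 in *CYP26A1*, in 0.0142% of all windows (5 windows), and in no other window of the 9 genes. The core of androgen response elements, AGAACA, which 12.4% of all windows hold, appeared in 1 window of the 9 genes, that of an inner start of *ALDH1A2*. These are letter matches in short windows and say nothing of binding.

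Of the 16 probes, 9 were detected on at least 3 of the 12 arrays and were tested, for 7 of the 9 genes. *ALDH1A3* and *RDH11* have 2 tested probes each, which share a transcript and are not independent. The tested values are log2 signals after background correction and quantile normalisation. Levels were not compared between probes.

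**Figure D1:**
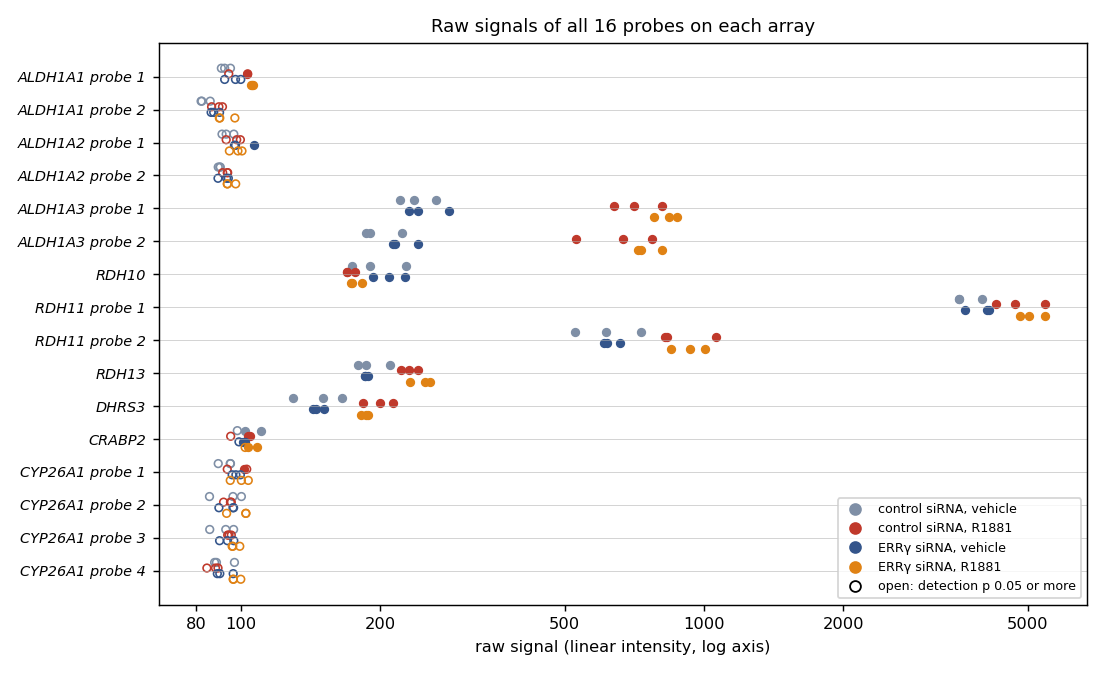
Raw signal of all 16 probes of the 9 genes on each of the 12 arrays (log axis), coloured by group, with filled points where the detection p-value was under 0.05 and open points otherwise. The probes of *CYP26A1*, *ALDH1A2*, *ALDH1A1* and *CRABP2* all lie between 82.13 and 110.4, near the detection limit, and the brighter *RDH11* probe reached 5452.

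R1881 raised *ALDH1A3*, *RDH11*, *RDH13* and *DHRS3* and lowered *RDH10* in cells with the control siRNA. In that comparison 7 of the 9 tested probes, belonging to 5 genes, passed limma's moderated test at an adjusted p under 0.05, 6 higher and 1 lower, while 39.6% of all 21959 tested probes did so, 18.9% higher and 20.7% lower. The median log2 change of the 9 probes was 0.45, and that of all tested probes was -0.012. With the ERRγ siRNA, 6 of 9 probes of the same 5 genes passed, 5 higher and 1 lower, against 36.6% of all probes, 17.4% higher and 19.2% lower, with a median log2 change of 0.38 for the 9 probes and -0.01 for all.

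**Figure D2:**
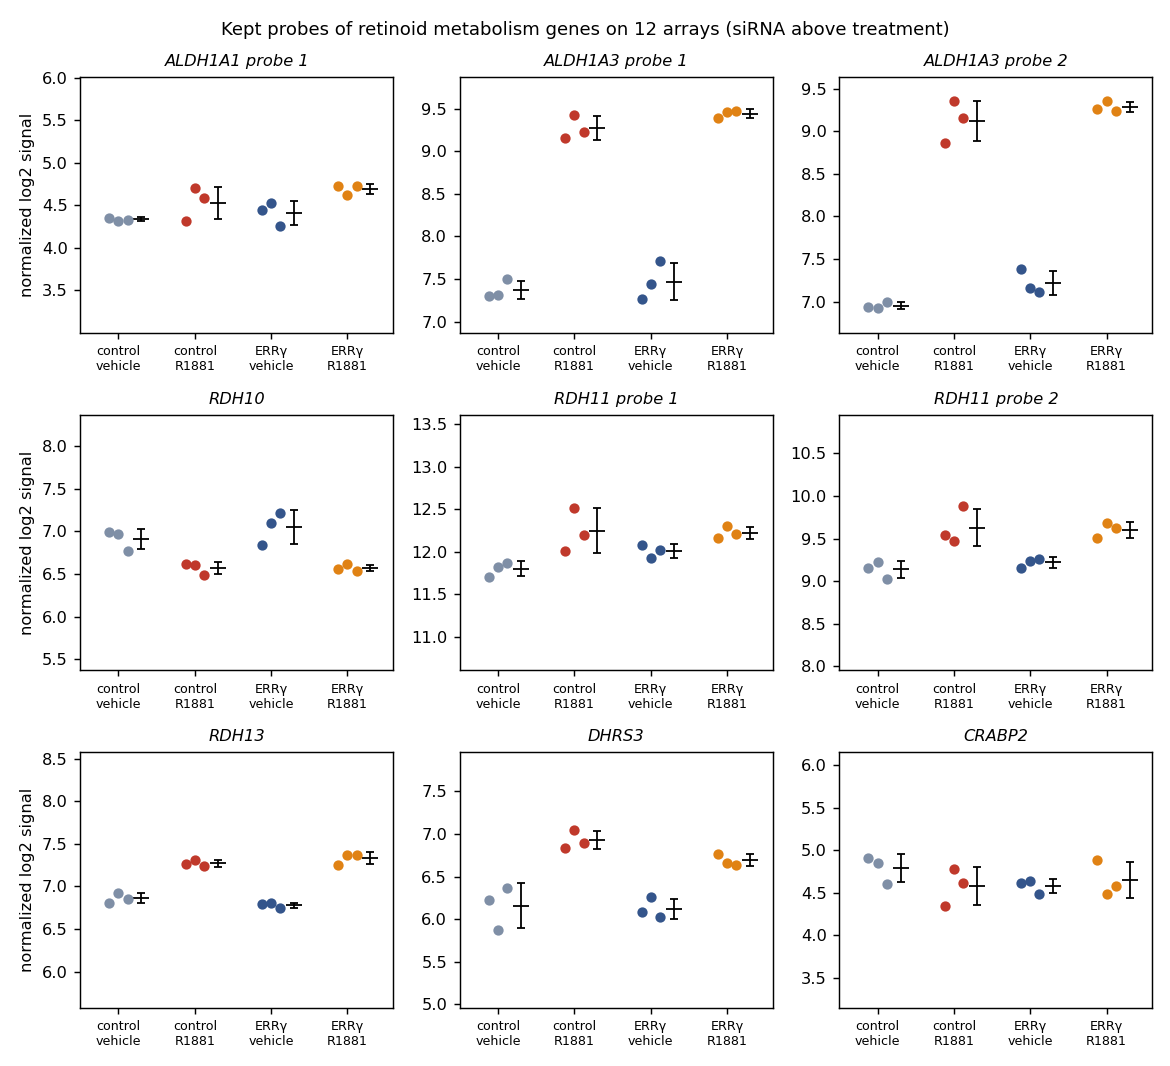
Normalised log2 signal of the 9 tested probes in the 4 groups, with 3 arrays per group as points and the mean with its SD as a bar. Both *ALDH1A3* probes lie between 6.92 and 7.71 in vehicle and between 8.86 and 9.47 in R1881, and *RDH10* is the probe that is lower in R1881 with either siRNA.

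Retinol dehydrogenases come first in the pathway. *RDH10* encodes the main enzyme that oxidises retinol to retinal in the mouse embryo. Its log2 signals with the control siRNA read 6.99, 6.97 and 6.77 in vehicle and 6.62, 6.61 and 6.49 in R1881. In cells given the ERRγ siRNA the vehicle arrays read 6.84, 7.10 and 7.22 and the R1881 arrays 6.56, 6.62 and 6.53. All 6 R1881 arrays lay below all 6 vehicle arrays. R1881 lowered *RDH10* by 1.26-fold with the control siRNA (log2 change -0.34 ± 0.11 SE, limma adjusted p = 0.022) and by 1.4-fold with the ERRγ siRNA (-0.49 ± 0.11, limma adjusted p = 0.00238). The call with the control siRNA was lost when replicate 1 (limma adjusted p = 0.0752) or replicate 2 (0.0722) of its vehicle group or replicate 3 (0.0765) of its R1881 group was left out. In the authors' deposited normalised values the log2 changes were -0.12 and -0.18.

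*RDH11* encodes a microsomal enzyme that reduces retinal to retinol. Its brighter probe read 11.70, 11.82 and 11.87 in vehicle and 12.01, 12.52 and 12.20 in R1881 with the control siRNA. Under the ERRγ siRNA the same probe read 12.08, 11.93 and 12.02 in vehicle and 12.16, 12.30 and 12.21 in R1881. The groups did not overlap with either siRNA, although the highest vehicle array with the ERRγ siRNA stood above the lowest R1881 array with the control siRNA. R1881 raised this probe by 1.37-fold with the control siRNA (log2 change 0.45 ± 0.12, limma adjusted p = 0.00707). With the ERRγ siRNA the change was 0.22 (95% interval -0.04 to 0.47, limma adjusted p = 0.174), and median scaling between arrays in place of quantile normalisation gave 0.35 and an adjusted p of 0.0338. In vehicle, the arrays with the ERRγ siRNA all lay above those with the control siRNA. That log2 change was 0.21 (95% interval -0.04 to 0.46) and did not pass (limma adjusted p = 0.426).

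The dimmer *RDH11* probe passed with both siRNAs. It read 9.15, 9.23 and 9.03 in vehicle and 9.54, 9.47 and 9.88 in R1881 with the control siRNA, a 1.41-fold rise (log2 change 0.49 ± 0.11, limma adjusted p = 0.00257). With the ERRγ siRNA it read 9.15, 9.24 and 9.26 in vehicle and 9.51, 9.68 and 9.62 in R1881, a 1.31-fold rise (0.38 ± 0.11, limma adjusted p = 0.0137). Every R1881 array lay above every vehicle array. The second call was lost without the ERRγ siRNA with vehicle replicate 1 (adjusted p = 0.0516) or without the ERRγ siRNA with R1881 replicate 2 (0.0531). The authors' deposited values for the dimmer probe gave log2 changes of 0.42 and 0.34.

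*RDH13* encodes a mitochondrial retinal reductase. Its log2 signals read 6.81, 6.92 and 6.85 in vehicle and 7.26, 7.31 and 7.24 in R1881 with the control siRNA, and 6.79, 6.81 and 6.75 against 7.25, 7.37 and 7.37 with the ERRγ siRNA. The spread within a group was small, with an SD of 0.03 to 0.07, and all R1881 arrays stood above all vehicle arrays. *RDH13* rose 1.33-fold with the control siRNA (log2 change 0.41 ± 0.08, limma adjusted p = 0.00114) and 1.46-fold with the ERRγ siRNA (0.54 ± 0.08, limma adjusted p = 0.000117). The authors' deposited values gave 0.16 and 0.21 on the log2 scale.

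*DHRS3* encodes a reductase that turns retinal back into retinol, working in a complex with RDH10, and its gene is itself induced by retinoic acid in many cells. Its log2 signals read 6.23, 5.87 and 6.37 in vehicle and 6.83, 7.05 and 6.90 in R1881 with the control siRNA. Under the ERRγ siRNA the vehicle arrays read 6.08, 6.26 and 6.03 and the R1881 arrays 6.77, 6.66 and 6.64. Again no vehicle array reached an R1881 array. *DHRS3* rose 1.71-fold with the control siRNA (log2 change 0.77 ± 0.12, limma adjusted p = 0.000172) and 1.48-fold with the ERRγ siRNA (0.56 ± 0.12, limma adjusted p = 0.00221). The raw signals were low, 129.6 to 213.5, and the authors' deposited values gave log2 changes of 0.26 and 0.19, so the size of this change depended on the normalisation while its direction and call did not. In R1881, the 3 arrays with the ERRγ siRNA lay below the 3 with the control siRNA, by a log2 change of -0.24 (95% interval -0.50 to 0.02), which did not pass (limma adjusted p = 0.836).

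The retinaldehyde dehydrogenases make retinoic acid from retinal. *ALDH1A3* showed the largest change of the 9 genes, and only 1.22% of all tested probes changed by as much as its first probe in cells with the control siRNA. That probe read 7.30, 7.31 and 7.50 in vehicle and 9.16, 9.43 and 9.23 in R1881. Under the ERRγ siRNA it read 7.27, 7.44 and 7.71 in vehicle and 9.39, 9.46 and 9.47 in R1881. The lowest R1881 array thus stood far above the highest vehicle array with either siRNA. The rise was 3.74-fold with the control siRNA (log2 change 1.90 ± 0.12, limma adjusted p = 1.12e-08) and 3.92-fold with the ERRγ siRNA (1.97 ± 0.12, limma adjusted p = 7.71e-09).

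The second *ALDH1A3* probe gave the same picture. It read 6.94, 6.92 and 7.0 in vehicle and 8.86, 9.35 and 9.15 in R1881 with the control siRNA, a 4.49-fold rise (log2 change 2.17 ± 0.12, limma adjusted p = 3.09e-09). With the ERRγ siRNA it read 7.38, 7.16 and 7.11 in vehicle and 9.26, 9.36 and 9.24 in R1881, a 4.19-fold rise (2.07 ± 0.12, limma adjusted p = 5.33e-09). The R1881 arrays were the highest of the 12 for both probes. In the authors' deposited values the changes were smaller, 1.23 and 1.31 for the first probe and 1.29 and 1.30 for the second. In vehicle, this second probe was the only one of the 9 with an unadjusted p under 0.05 between the siRNAs, with a log2 change of 0.26 (95% interval 0.01 to 0.51, limma adjusted p = 0.329) and groups that did not overlap. The first probe gave 0.10 (-0.15 to 0.35) in the same comparison, with groups that overlapped.

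Neither of the other retinaldehyde dehydrogenases was clearly above background. The first *ALDH1A1* probe was detected on 0 of 3, 1 of 3, 0 of 3 and 3 of 3 arrays of the control siRNA with vehicle, the control siRNA with R1881, the ERRγ siRNA with vehicle and the ERRγ siRNA with R1881, with raw signals of 90.76 to 106.3. It reached the 3 arrays needed for testing only through the R1881 groups where it was higher, so its change is given as a value. The log2 signals read 4.35, 4.32 and 4.33 in vehicle and 4.32, 4.70 and 4.59 in R1881 with the control siRNA, a change of 0.20 (95% interval -0.03 to 0.43). Under the ERRγ siRNA the vehicle arrays read 4.44, 4.53 and 4.26 and the R1881 arrays 4.73, 4.62 and 4.73, a change of 0.28 (0.05 to 0.51). With the vehicle arrays set to the detection limit, the rise was 1.07-fold in this processing. The authors' deposited values for this probe gave log2 changes of 0.01 with the control siRNA and 0.02 with the ERRγ siRNA. The second *ALDH1A1* probe was detected on 0 of 12 arrays. *ALDH1A2* was detected on 1 of 12 arrays with its first probe, one of the ERRγ siRNA with vehicle at a detection p-value of 0.00649, and on 0 of 12 with its second.

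Replicate 1 of the control siRNA with R1881 held the lowest values of its group for the first *ALDH1A1* probe, for *CRABP2* and for both *ALDH1A3* probes. It was also the lowest of its group in the brighter *RDH11* probe, with 12.01 against 12.20 and 12.52, and in *DHRS3*, with 6.83 against 7.05 and 6.90. It was not the lowest in *RDH10*, *RDH13* or the dimmer *RDH11* probe. Without it, *ALDH1A3*, *RDH10*, *RDH11*, *RDH13* and *DHRS3* kept every call they had with all arrays.

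*CRABP2* encodes the binding protein that delivers retinoic acid to its receptors in the nucleus. It was detected on 8 of 12 arrays, 2 in each group, at raw signals of 95.05 to 110.4, so its values lie at the detection limit. With the control siRNA it read 4.91, 4.85 and 4.60 in vehicle and 4.35, 4.78 and 4.61 in R1881, and with the ERRγ siRNA 4.61, 4.64 and 4.49 against 4.88, 4.49 and 4.58. The groups overlapped in each comparison. The log2 change with R1881 was -0.21 (95% interval -0.50 to 0.07, limma adjusted p = 0.234) with the control siRNA and 0.07 (-0.21 to 0.35, limma adjusted p = 0.725) with the ERRγ siRNA.

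*CYP26A1*, the hydroxylase that clears retinoic acid and one of the genes most strongly induced by it in many cells, was not measurable. Its 4 probes were detected on 1, 0, 0 and 0 of the 12 arrays, with a lowest detection p-value of 0.039 on an array of the control siRNA with R1881. Raw signals ran from 84.5 to 103.8 over the 4 probes and all 12 arrays. At these signals neither a presence nor a change could be seen in any group.

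None of the 9 tested probes passed in the comparisons of the siRNAs. In vehicle, 0 of 9 passed by limma's test (1 at an unadjusted p under 0.05, lowest adjusted p = 0.329), while 0.228% of all probes passed, 50 of 21959 (0.0228% higher and 0.205% lower), and 3189 of all probes had an unadjusted p under 0.05. The log2 changes ran from -0.21 to 0.26, and their 95% intervals reached from -0.49 to 0.51. In R1881, 0 of 9 passed (0 at an unadjusted p under 0.05, lowest adjusted p = 0.836) and 0% of all probes, of which 1366 had an unadjusted p under 0.05, with changes of -0.24 to 0.17 and intervals of -0.50 to 0.42. The difference between the R1881 responses of the siRNAs was past the threshold for 0 of 9 probes and for 0% of all probes by limma's test. It ran from -0.23 for the brighter *RDH11* probe to 0.28 for *CRABP2*, with 0 of 9 probes at an unadjusted p under 0.05, against 2317 of all probes. The intervals, from -0.59 to 0.68, do not show that the responses were alike. The responses with the 2 siRNAs share no arrays, while the siRNA comparisons use the same arrays again.

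**Figure D3:**
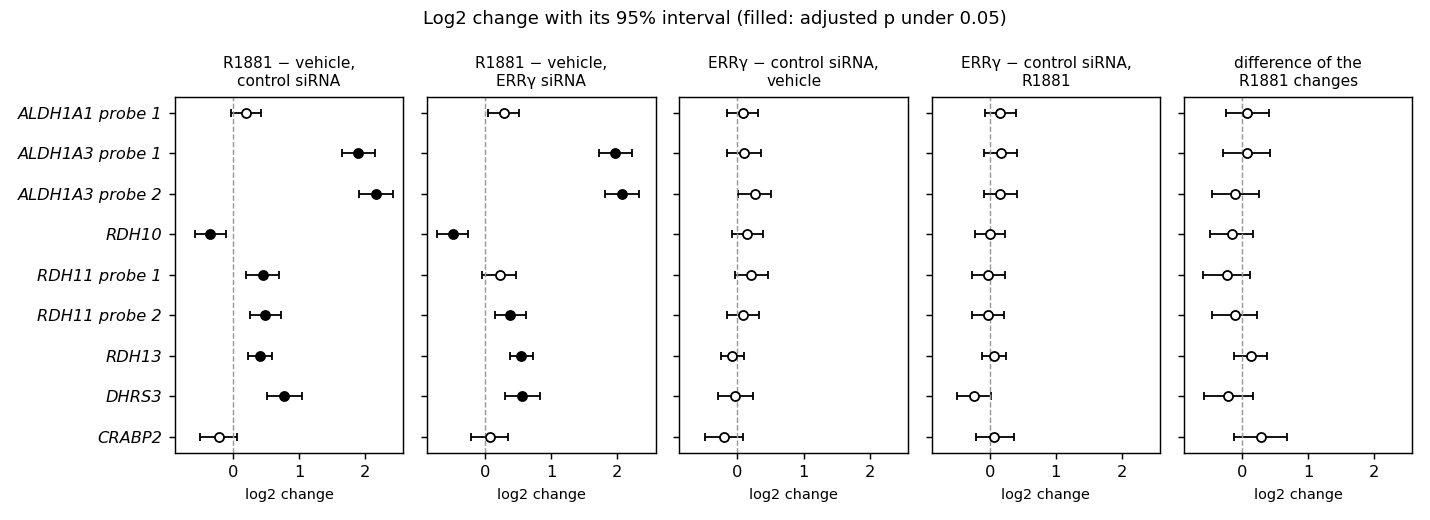
Log2 change of the 9 tested probes with its 95% interval, for R1881 against vehicle with each siRNA and for ERRγ siRNA against control siRNA, within vehicle and within R1881, and for the difference of the R1881 changes, with filled points at an adjusted p under 0.05. The *ALDH1A3* probes stand at 1.90 to 2.17 for R1881, and all changes between the siRNAs lie between -0.24 and 0.26.

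Other genes of retinoid handling were listed by role, 62 in all, each read by its brightest tested probe. Of these 31 could be tested. R1881 raised 9 and lowered 8 of 31 with the control siRNA, 54.8% against 39.7% of all 17259 genes read in this way (17.6% higher and 22.1% lower), with a median log2 change of 0.06. In cells with the ERRγ siRNA 8 rose and 8 fell, 51.6% against 36.6% (16.5% higher and 20.2% lower), with a median of 0.14. Of the 31 genes, 9 were detected on fewer than 3 of the 6 arrays of at least 1 treatment. The other treatment carried them through the filter, except *HOXB1*, which was detected on 1 vehicle and 2 R1881 arrays. Among the remaining 22, 7 rose and 7 fell with the control siRNA, and 6 rose and 7 fell with the ERRγ siRNA. The share of all genes under this stricter condition was not taken, so the shares above are not a like comparison for the 22. None of the 31 passed limma's test in either comparison of the siRNAs or in the difference of the responses, where 0.249% of all genes passed in vehicle (0.0174% higher and 0.232% lower) and 0% in the others.

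Of the other oxidoreductases, 5 of 13 were called higher and 1 lower with each siRNA. These include *ADH1C* and *AKR1C3*, which were each detected in 1 treatment only. The genes called higher were not all the same, as *RDH12* was called only with the control siRNA and *AKR1B1* only with the ERRγ siRNA. The called share was 46.2% with each siRNA, beside 39.7% of all genes with the control siRNA and 36.6% with the ERRγ siRNA. *ADH1C* and *ADH1A* are class I alcohol dehydrogenases, which can oxidise retinol, and *DHRS7* is a short-chain reductase. *ADH1C* was below detection in all 6 vehicle arrays and detected on all 6 R1881 arrays. With the vehicle arrays set to the detection limit, it was 3.14-fold higher in R1881 with the control siRNA and 2.94-fold higher with the ERRγ siRNA. These folds hold only for the background correction used here, and without it the log2 changes were 0.71 and 0.66. *ADH1C* was tested only through the R1881 groups where it was high, so no p is given. *ADH1A*, whose sequence is close to that of *ADH1C*, so that shared signal cannot be told apart, changed by 1.62 and 1.83 on the log2 scale and was detected on 3 of 6 vehicle arrays. In the authors' deposited values both changes were far smaller, 0.34 and 0.32 for *ADH1C* and 0.32 and 0.35 for *ADH1A*. *DHRS7* rose by 1.61 ± 0.11 (limma adjusted p = 2.33e-08) and 1.21 ± 0.11 (5.34e-07), and the authors' deposited values gave 1.76 and 1.35. *RDH14*, a relative of *RDH11*, rose by 0.48 ± 0.09 (limma adjusted p = 0.000547) and 0.29 ± 0.09 (0.0163), with 0.43 and 0.28 in the authors' deposited values. *AKR1C3*, a ketosteroid and retinal reductase, was detected on all 6 vehicle arrays and on none of the 6 R1881 arrays. With the R1881 arrays set to the detection limit and the background correction used here, it was 1.3-fold lower with the control siRNA and 1.49-fold lower with the ERRγ siRNA. It was tested only through the vehicle groups where it was high. The authors' deposited values gave -0.06 and -0.09 for it.

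Among carriers, 2 of 4 tested genes rose and 1 fell with each siRNA. The called share was 75% of only 4 genes, beside 39.7% of all genes with the control siRNA and 36.6% with the ERRγ siRNA. The plasma carrier *TTR*, which holds retinol-binding protein in the blood, rose by 1.05 ± 0.17 (limma adjusted p = 0.000227) and 1.29 ± 0.17 (3.84e-05). The lipoprotein receptor *SCARB1*, which takes up carotenoids, rose by 0.62 and 0.78, and the cellular retinol carrier *RBP5* fell by 0.69 and 0.57. The authors' deposited values gave smaller changes, 0.27 and 0.35 for *TTR*, 0.37 and 0.46 for *SCARB1*, and -0.09 and -0.08 for *RBP5*, which was detected on 3 of 6 R1881 arrays. Of 3 tested genes for esters and storage, 2 were called higher with the control siRNA, and 1 higher and 1 lower with the ERRγ siRNA. That is 66.7% of only 3 genes with each siRNA, beside the same shares of all genes. The gene called higher with both was *CES1*, a carboxylesterase, which was detected on 0 of 6 vehicle and 5 of 6 R1881 arrays and was tested only through the R1881 groups. Neither *CYP26B1* nor *CYP26C1*, the other retinoic acid hydroxylases, could be tested.

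Of the 6 retinoid receptors 5 were tested, and those that changed fell. With the control siRNA 3 were called, 60% beside 39.7% of all genes. With the ERRγ siRNA 2 were called, 40% beside 36.6%. *RARA* fell by 0.81 ± 0.11 (limma adjusted p = 5.5e-05) and by 0.79 ± 0.11 (7.3e-05) on the log2 scale, and *RXRB* fell by 0.50 ± 0.11 (0.00257) and by 0.61 ± 0.11 (0.000667). The authors' deposited values gave -0.32 and -0.30 for *RARA* and -0.34 and -0.40 for *RXRB*. *RXRA* read 9.84, 9.86 and 10.04 in vehicle and 9.11, 8.45 and 8.63 in R1881 with the control siRNA, and 9.29, 9.59 and 9.27 against 9.24, 8.88 and 9.04 with the ERRγ siRNA. It fell with the control siRNA (log2 change -1.19 ± 0.16, limma adjusted p = 3.01e-05), and its change with the ERRγ siRNA was -0.33 (limma adjusted p = 0.117). The vehicle arrays with the ERRγ siRNA lay below those with the control siRNA, with a log2 change of -0.53 (limma adjusted p = 0.152). The difference of the *RXRA* responses was 0.85 ± 0.22 (95% interval 0.38 to 1.33) and did not pass (limma adjusted p = 0.266), but without the control siRNA with R1881 replicate 1 it was 1.05 with an adjusted p of 0.0224. In that same fit the *RXRA* change with the ERRγ siRNA, still -0.33, passed as well (limma adjusted p = 0.0458). *RARB* was detected on 1 of 6 vehicle and 5 of 6 R1881 arrays, and *RXRG* on 2 of 6 and 4 of 6. Both thus passed the detection filter through the R1881 groups. *RARB* and *RXRG* had log2 changes of 0.23 and 0.06 with the control siRNA and 0.16 and 0.26 with the ERRγ siRNA, and did not pass. Without the control siRNA with R1881 replicate 3, the *RARB* change with the control siRNA was 0.40. Its call in that fit carries no weight, because the R1881 groups brought *RARB* through the filter. *RARG* was detected on no array.

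Of the 6 tested genes known to respond to retinoic acid in other cells, 0 rose and 3 fell with each siRNA. These were *RARRES3* (now *PLAAT4*), a phospholipase, by 1.20 ± 0.13 and 0.93 ± 0.13, the ankyrin-repeat gene *RAI14* by 1.09 ± 0.11 and 1.03 ± 0.11, and the nuclear receptor corepressor *NRIP1* by 0.58 ± 0.12 and 0.63 ± 0.12. The highest limma adjusted p of these was 0.00117. The authors' deposited values gave -0.27 and -0.20 for *RARRES3*, -0.72 and -0.68 for *RAI14*, and -0.41 and -0.45 for *NRIP1*. The called share was 50% with each siRNA. Of all genes, 39.7% were called with the control siRNA (22.1% lower) and 36.6% with the ERRγ siRNA (20.2% lower). The members of this list answer to many other signals, and its count says no more than that these 3 genes fell.

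**Figure D4:**
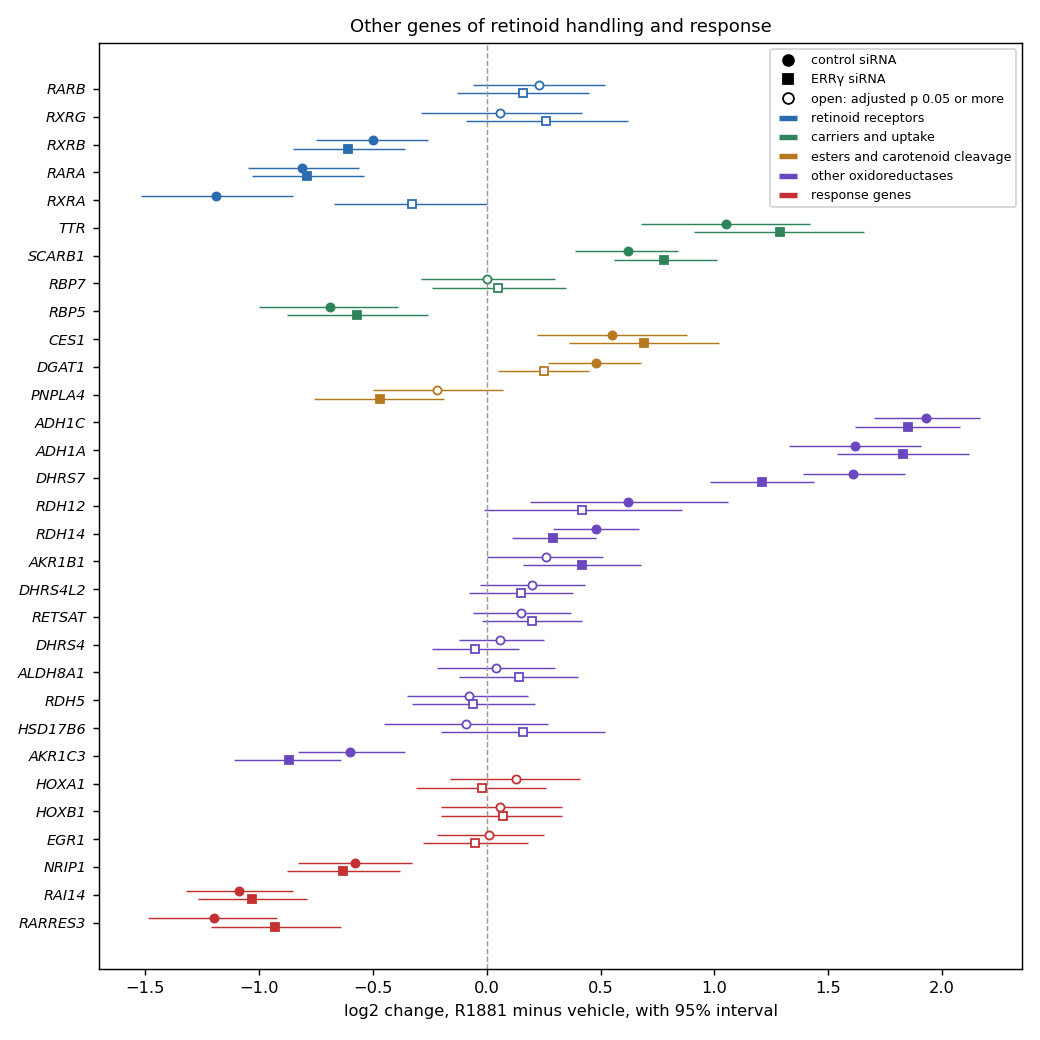
Log2 change with R1881 of the 31 tested retinoid-handling genes outside the 9, with the control siRNA and with the ERRγ siRNA, coloured by role, with 95% intervals and open points at an adjusted p of 0.05 or more. *ADH1C*, *ADH1A* and *DHRS7* stand at 1.21 to 1.93, and *RXRA*, at -1.19 and -0.33, is the receptor with the widest gap between the siRNAs.

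Genes close to the *ALDH1A3* and *RDH10* patterns were sought by the root mean square difference of centred log2 signals over the 12 arrays. Symbols starting with LOC or HS were left out, and 17473 probes were compared with the second *ALDH1A3* probe and 17474 with *RDH10*. For the second *ALDH1A3* probe the closest genes were *SIPA1L2*, *PPAP2A* (now *PLPP1*), *KCNN2*, *SGK* (now *SGK1*) and *TNFAIP8*, with differences of 0.12 to 0.14 and a Pearson r of 0.99 each. For *RDH10* they were *EFTUD1* (now *EFL1*), *AZI2*, *DMTF1*, *C11ORF60* (now *IFT46*) and *DPY19L1*, with differences of 0.06 to 0.08 and r of 0.94 to 0.96. The 12 points of each share 4 group means, so these values only describe the likeness.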

How the data were processed

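The authors deposited, per the file headers, a raw bead-array signal for each probe and array (an intensity on a linear scale) with a detection p-value, and a normalized table whose values are log2 as judged from the values, with array medians of 7.09 to 7.093 and a slope of 1.03 to 1.16 on the log2 raw signal of probes over 1000. How the authors normalized is not given in the sources used here. Background was corrected from the raw signals with nec of limma 3.58.1 (offset 16), followed by quantile normalization and log2 (R 4.3.3, with the package data.table in version 1.17.8). The 92 spike-in probes were left out. Probes with a detection p-value under 0.05 on at least 3 of the 12 arrays were kept (21959).

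One mean per group was fitted with lmFit and eBayes on all 12 arrays, without covariates. Adjusted p-values are two-sided Benjamini-Hochberg values over all 21959 probes, and a call is an adjusted p under 0.05. The model fit alone was tested on simulated normalised values, for the comparison of R1881 with vehicle under the control siRNA. All 9 genes are named whatever their values. Of the 62 listed genes, the text names those called with a log2 change of at least 1 and the receptors. Others (*RDH12*, *RDH14*, *AKR1B1*, *AKR1C3*, *SCARB1*, *RBP5*, *CES1*, *NRIP1*) were chosen after their values were seen, as were the CYP26 genes outside the 9. The genes, the lists and the tests were chosen with earlier results of these data known. The alternatives were the background correction, its offset, the authors' table, median scaling, 2 filters, 1 probe per gene, another variance model, the compared groups alone, a replicate block and leaving out each array. Precision is limited by the number of arrays. The median 95% interval of a log2 change reached 0.258 to each side, and 0.365 for the difference of the responses. Motifs were searched in RefSeq windows of GRCh38.p14, and gene names come from the deposited table.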

Additional observations from a re-analysis of the deposited data

How the results depend on the processing

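Over 10 processing alternatives, 5 to 7 of the 9 probes passed for R1881 with the control siRNA and 4 to 7 with the ERRγ siRNA, the lowest counts coming from 1 probe per gene, and 0 passed in the comparisons of the siRNAs and in the difference of the responses. Leaving out each array in turn gave 6 to 8 and 5 to 7, and 0 in the others. The listed pathway genes gave 15 to 17 and 16 to 17 calls over the alternatives, and 16 to 17 and 15 to 18 without each array. Of 961 recomputed values of the 9 probes, 921 kept direction and call, 5 lost a call, 6 gained one, 29 that were never called changed sign or rounded to 0, and 0 reversed a called direction. Of the 6 gains, 5 were of the first *ALDH1A1* probe, which was tested only through the R1881 groups and whose calls carry no weight. Over all probes, the count of 50 for the ERRγ siRNA in vehicle ranged from 6 to 473 (and from 1 to 192 without each array), and the 0 for the difference of the responses reached 40 with another variance model and 162 without the control siRNA with R1881 replicate 1. With the replicate block, 7 and 6 of the 9 probes passed for R1881 and 0 in the others, with 17 and 16 pathway genes, and the 50 became 6. Replicate numbers do not pair the samples: over 18 pairs the correlation of deviations ran from -0.25 to 0.11, and 1 was over 0.1. A chip as a block was not run, because the file headers give none. Signals near background limit *ALDH1A1*, *ALDH1A2*, *CRABP2* and *CYP26A1*.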
